A study of Mus musculus with 32 samples.

Results

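Serum-starved NIH 3T3/4E cells were described here by the difference between their heavy and their light polysome RNA, clone by clone, on cDNA arrays. NIH 3T3 is an immortalised mouse fibroblast line, and NIH 3T3/4E is a derivative that ectopically overexpresses the translation initiation factor eIF4E. The cells had been kept for 16 h without serum, a time that the study set before cytochrome c leaves the mitochondria. The 8 deposited columns of this state, of 32 in the series, were chosen by their titles, which name the cell line, the fraction and the serum state. Fractions 4 to 6 of the sucrose gradient made up the light pool, and fractions 7 to 10 made up the heavy pool. The same reference was hybridised on every array, poly(A) RNA from NIH 3T3 cells that grew in complete medium, taken without a gradient. The other states, used for comparison, were NIH 3T3/4E cells in complete medium (basal) and NIH 3T3 cells in complete medium or after 16 h without serum, each with a heavy and a light pool. What drives the eIF4E transgene, whether the line is 1 clone and whether the samples are separate cultures is not given in the sources used here, so p-values measure only the spread between these samples, which may be technical.

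eIF4E binds the cap at the start of a messenger RNA and brings it to the complex that recruits the ribosome. In cells without growth factors, the 4E-binding proteins hold eIF4E and initiation falls, and an excess of eIF4E is known to favour messages with long or structured leaders, many of which code for growth and survival proteins. On a sucrose gradient a message with few or no ribosomes stays in the light fractions, and a message with several sediments into the heavy ones. The study asked which transcripts carry the resistance to apoptosis that eIF4E gives these cells.

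Each deposited value is a log ratio between the sample and the reference, taken here as log2. Which of them is the numerator is not given in the sources used here, so a positive heavy minus light difference does not state more RNA on heavy polysomes, and signs are given as coded. No file pairs a clone ID with a gene. The mouse RefSeq table listed 0 of the IDs, so clones are named by ID only, with no gene, cell type marker or sequence. In an ID such as H3059E05 the digits after H3 are the library plate (059), the letter is the plate row and the last digits are the plate column. The columns came in pairs in which 1 was at or above its partner at every clone, and each pair was treated as the upper and the lower reading of 1 sample. What these values are (a pair of spots, or limits around a mean, for example) is not given in the sources used here. Their mean gave 2 heavy and 2 light samples, each centred on its median over the 15169 clones that were measured in all 16 samples of the series.

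The heavy samples resembled each other less than the light samples did. Across the clones, which are not independent replicates, the light samples correlated at r = 0.66 and the heavy samples at r = 0.53. In the 6 groups of the other states this correlation was 0.58 to 0.68. Heavy sample 2 stood apart: its median absolute deviation of 0.739 was the widest of the 16 samples, against 0.576 in heavy sample 1, 0.517 in light sample 1 and 0.625 in light sample 2. It correlated at r = 0.37 and 0.34 with the light samples, where heavy sample 1 reached 0.61 and 0.55. Its upper and lower columns were equal at 23.8% of the clones, against 9.74 to 15.6% in the other 3 samples of starved 4E and 8.54 to 22.2% in the 12 samples of the other states. The counts of clones that passed, the share with the same sign in the other states, and the tests of several named clones are given with and without it. The levels, the medians in the other states and the plate positions were computed with it only.

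Most clones had small differences between the fractions, within their error. The middle 50% of clones had heavy minus light differences from -0.41 to 0.42, and 90% lay between -1.06 and 1.14. The median standard error was 0.39, so that the 95% half-width of 1 difference, without adjustment for the number of clones, was 0.84 at the median. A difference beyond 1 in either direction was seen at 1928 clones, 1041 positive and 887 negative. The fractions did not overlap, with both heavy samples above or both below both light samples, at 6665 clones, 43.9% of those tested. At 3929 clones (25.9%) this also held for all 8 columns. With 2 samples per side many clones fall apart in this way by order alone, so these shares are a description.

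In limma's fit of all 8 groups, 145 clones (0.956% of those tested) passed an adjusted p of 0.05 (Benjamini-Hochberg). Of these, 102 (0.672%) were positive, between 1.39 and 2.46 with a median of 1.77. The other 43 (0.283%) were negative, between -3.26 and -1.33 with a median of -1.63. Without adjustment 2569 clones (16.9%) had a p under 0.05, and there the sides were close, with 1317 positive and 1252 negative. The size of a difference alone did not decide the call. Of 398 clones beyond 1.5 in either direction 122 passed and 276 did not, and the median standard error was 0.49 in those that did not pass, against 0.34 in the clones that passed.

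The number of clones that passed depended on the scale of the samples and on single samples. Scaling all samples to 1 median absolute deviation left 2 clones past the threshold and quantile normalization left 9. Under both, all 145 clones kept their sign and an unadjusted p under 0.01 by limma. The same samples had picked these clones, so this is a description and no support for them. The median difference of the 102 positive clones was then 1.58 and 1.56, and that of the 43 negative clones -1.5 and -1.59. Without heavy sample 2 the fit passed 35 clones, 8 of them among the 145. Without heavy sample 1, which leaves the sample of widest spread to stand for the heavy fraction, it passed 635, 118 of them among the 145. Without light sample 1 it passed 13 and without light sample 2 it passed 30, in both cases with 4 of the 145. In these fits the lone sample of the fraction is assumed to vary like the other groups. A fit of the 4 samples alone, with 2 residual degrees of freedom, passed 0 clones by limma (1796 without adjustment at 0.05), and a fit with the NIH 3T3 basal samples passed 0 (2295).

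**Figure D1:**
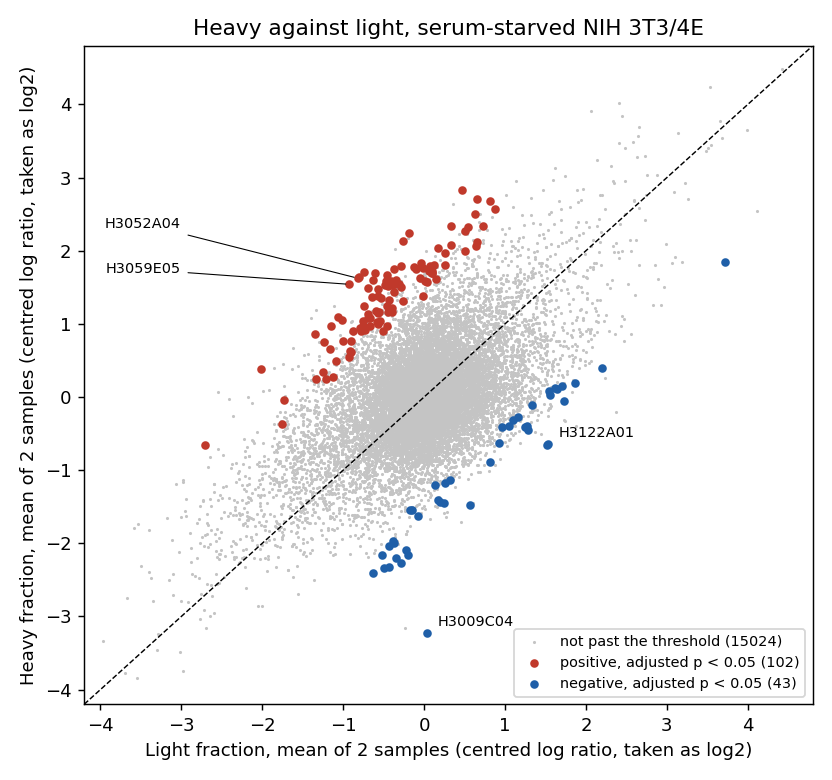
Each point is 1 of the 15169 clones, at its mean over 2 light samples (horizontal axis) and 2 heavy samples (vertical axis) of serum-starved NIH 3T3/4E cells, as centred log ratios; the dashed line marks equal values. The 102 positive and the 43 negative clones with adjusted p under 0.05 lie in bands away from the line, and clone H3009C04 lies farthest below it.

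The positive clones mostly crossed the level of the typical clone. Their median centred log ratio was 1.30 in heavy sample 1 and 1.57 in heavy sample 2, against -0.38 and -0.57 in the light samples. The heavy mean was above 0 and the light mean below 0 at 74 of the 102 (72.5%), as it was at 17.6% of all clones. The clones were picked for a large difference in these same samples, which favours such a crossing, so this share is a description. Both means were above 0 at 25 and both below 0 at 3. Heavy sample 2 lay farther from the light mean than heavy sample 1 did at 79 of the 102 (77.5%), against 62.1% of all clones. This is the sample of widest spread, and its part in the size of the differences was not tested beyond the fits without it.

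The light means of the negative clones ran from -0.63 to 3.72 and their heavy means from -3.23 to 1.84, where all clones ran from -3.97 to 4.42 and from -3.84 to 4.48. Their median was -1.0 and -1.07 in the heavy samples and 0.71 and 0.45 in the light samples. The heavy mean was below 0 and the light mean above 0 at 21 of the 43 (48.8%, against 19% of all clones). This share too is a description, since the clones were picked for their difference in these samples. Both means were below 0 at 14, where the light samples lay nearer to the typical clone, and both above 0 at 8. Heavy sample 2 was the farther one at 24 of the 43 (55.8%), against 62.1% of all clones.

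Clone H3059E05, with the most positive difference among the clones that passed, stood at 1.13 and 1.95 in the heavy samples and at -0.85 and -1.0 in the light samples. The fractions did not overlap, as was so for all 145 clones that passed, and the upper and lower columns of a sample differed by at most 0.28. The difference was 2.46 (SE 0.37, adjusted p = 0.0187). In the other states its difference was 2.07 in 4E basal, 2.29 in NIH 3T3 starved and 1.96 in NIH 3T3 basal cells, and its adjusted p there was 0.0967, 0.0486 and 0.0478 in the same fit. Without heavy sample 2 the difference was 2.06 with an adjusted p of 0.0691.

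Clone H3052A04 followed at 1.31 and 1.94 in the heavy and at -0.71 and -0.93 in the light samples. Its difference was 2.45 (SE 0.36, adjusted p = 0.0187). For this clone and for H3059E05, both heavy samples lay above both light samples in all 4 states. The differences of H3052A04 were 1.85 in 4E basal, 2.03 in NIH 3T3 starved and 1.84 in NIH 3T3 basal cells. The test against the mean of the other states did not pass for either, with a difference of 0.36 (SE 0.43, adjusted p = 0.998) for H3059E05 and 0.54 (SE 0.41, adjusted p = 0.998) for H3052A04. Any single sample of starved 4E left out put the adjusted p of both above 0.05, except heavy sample 1. Scaling by median absolute deviation (adjusted p = 0.055) and array weights (0.0748) did so too.

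Clone H3009C04 had the most negative difference. It stood at -2.99 and -3.47 in the heavy samples and at -0.06 and 0.12 in the light samples, a difference of -3.26 (SE 0.37, adjusted p = 0.00561). In the other 12 samples of the series it lay between -0.39 and 1.26, so that both heavy samples of starved 4E lay below every other sample. The upper and lower columns disagreed there. In heavy sample 1 they were -0.20 and -5.78, and in heavy sample 2 they were -2.16 and -4.79, whereas in the light samples they lay within 0.26 of each other. They also disagreed in heavy sample 1 of NIH 3T3 starved cells, at 3.12 and -0.60, the sample with the value of 1.26. With the upper columns alone the difference was -1.33 (SE 0.68, adjusted p = 0.352).

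Clone H3122A01 had the second most negative difference among the clones that passed, at -0.72 and -0.57 in the heavy and at 2.13 and 0.94 in the light samples. The fractions did not overlap, as was so for all 145 clones that passed, although the light samples were 1.19 apart. The difference was -2.18 (SE 0.42, adjusted p = 0.0356). It was -0.60 in 4E basal, -0.97 in NIH 3T3 starved and -0.67 in NIH 3T3 basal cells, smaller than in starved 4E in each. Its difference was -1.58 without light sample 1 (adjusted p = 0.137) and -2.25 without heavy sample 2 (adjusted p = 0.111). It did not pass with quantile normalization (adjusted p = 0.0729), scaling by median absolute deviation (0.0828) or array weights (0.103) either.

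Clone H3137B06 falls outside the rule for naming clones and was chosen after its values were seen. H3137B06 and H3009C04 were the clones that passed in each of the 4 fits without 1 sample of starved 4E. With array weights, and after the scaling by median absolute deviation, the same 2 clones passed. H3137B06 stood at 0.54 and 0.22 in the heavy samples and at -1.91 and -2.13 in the light samples. Its difference was 2.40 (SE 0.31, adjusted p = 0.0119), against 0.40 in 4E basal, 0.84 in NIH 3T3 starved and 1.68 in NIH 3T3 basal cells.

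**Figure D2:**
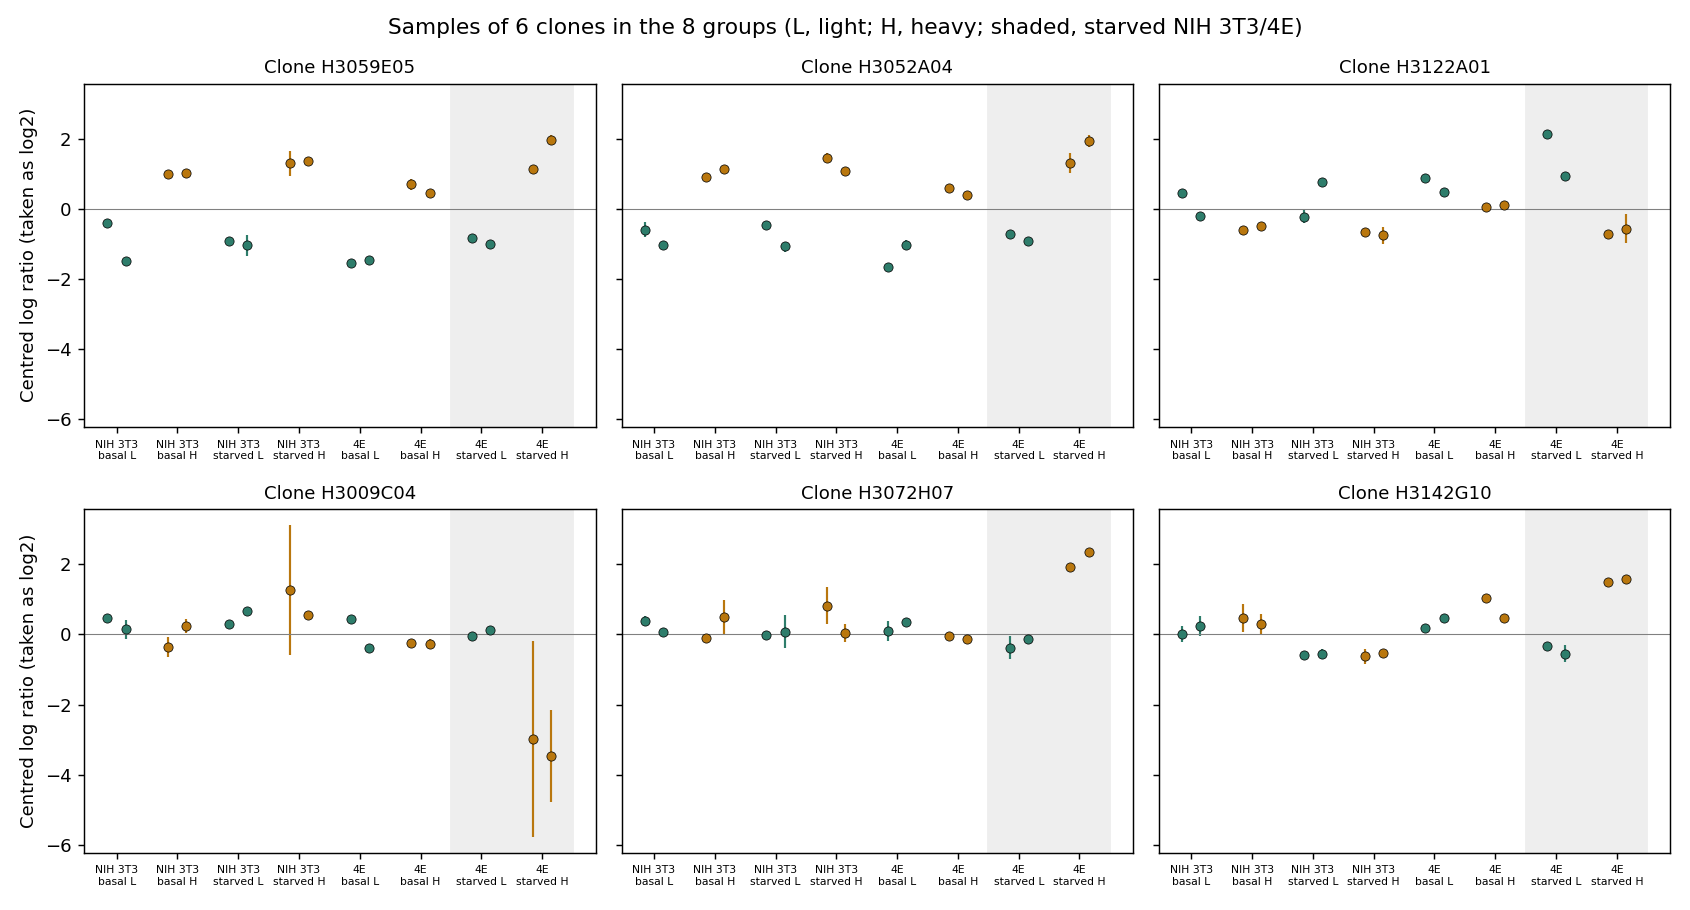
Each panel shows 1 clone, with the 2 samples of each of the 8 groups on the horizontal axis (L, light; H, heavy) and the centred log ratio on the vertical axis. Points are sample values and bars run from the lower to the upper deposited column. H3059E05 and H3052A04 differ between light and heavy in every state, whereas H3009C04 and H3072H07 stand out in the heavy samples of starved 4E. The bars of H3009C04 are long there and in 1 heavy sample of NIH 3T3 starved cells. H3142G10 is also highest there, but its heavy samples of 4E basal cells reach 1.03.

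The other states share no sample with starved 4E except the common reference, and were used to ask whether the same clones differed between the fractions there. Of the 145 clones, 130 (89.7%, 95% exact binomial interval 83.5 to 94.1, which treats clones as independent) had the same sign in all 3 other states, against 36.4% of all clones tested. The share was 92 of 102 on the positive side and 38 of 43 on the negative side. By state, 136 (93.8%) had the same sign in 4E basal, 138 (95.2%) in NIH 3T3 starved and 142 (97.9%) in NIH 3T3 basal cells, where all clones gave 62.4%, 63.9% and 68.1%. Both heavy samples lay on the same side of both light samples as in starved 4E at 124 of the 145 (85.5%) in 4E basal, 126 (86.9%) in NIH 3T3 starved and 140 (96.6%) in NIH 3T3 basal cells. The same count over all clones gave 30.6%, 30.5% and 36.1%.

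The share with the same sign was lower among the clones that passed with 1 sample left out. It was 60.9% of the 635 clones that passed without heavy sample 1 and 28.6% of the 35 that passed without heavy sample 2. It was 30.8% of the 13 without light sample 1 and 30% of the 30 without light sample 2. Over all clones the share was 36.4%, by the sign in the fit with all samples and not in these fits. The last 3 shares rest on few clones, and whether they differ from that share was not tested.

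The positive clones had a median difference of 1.12 in 4E basal, 1.32 in NIH 3T3 starved and 1.48 in NIH 3T3 basal cells, against 1.77 in starved 4E. The negative clones had medians of -0.85, -0.89 and -1.09, against -1.63. These clones were picked for their difference in starved 4E, which favours larger values there, so the gap is a description with no test. The difference was largest in starved 4E for 75 of the 102 positive and 42 of the 43 negative clones, and for 30.1% of all clones.

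Passing the threshold in another state was then counted. In 4E basal cells 0 of the 145 passed by limma, where 0 of all clones did (1982 at an unadjusted p under 0.05, 13.1%), and 104 of the 145 had an unadjusted p under 0.05 with the same sign. In NIH 3T3 starved cells 17 passed, where 30 of all clones (0.198%) did, and in NIH 3T3 basal cells 27 passed, where 48 (0.316%) did. All of these were positive. None of the 43 negative clones passed in another state by limma, and 27, 31 and 34 of them had an unadjusted p under 0.05 with the same sign in 4E basal, NIH 3T3 starved and NIH 3T3 basal cells, where 13.1, 13 and 15.3% of all clones had such a p with either sign. Read the other way, 17 of the 29 positive clones of NIH 3T3 starved cells (58.6%) and 27 of the 46 positive clones of NIH 3T3 basal cells (58.7%) also passed in starved 4E. In all, 33 of the 102 positive clones passed in at least 1 other state and 11 of them in 2, where 66 and 12 of all 15169 clones did. The fit takes 1 spread for a clone from all groups, so a clone of small spread is favoured in every state at once.

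**Figure D3:**
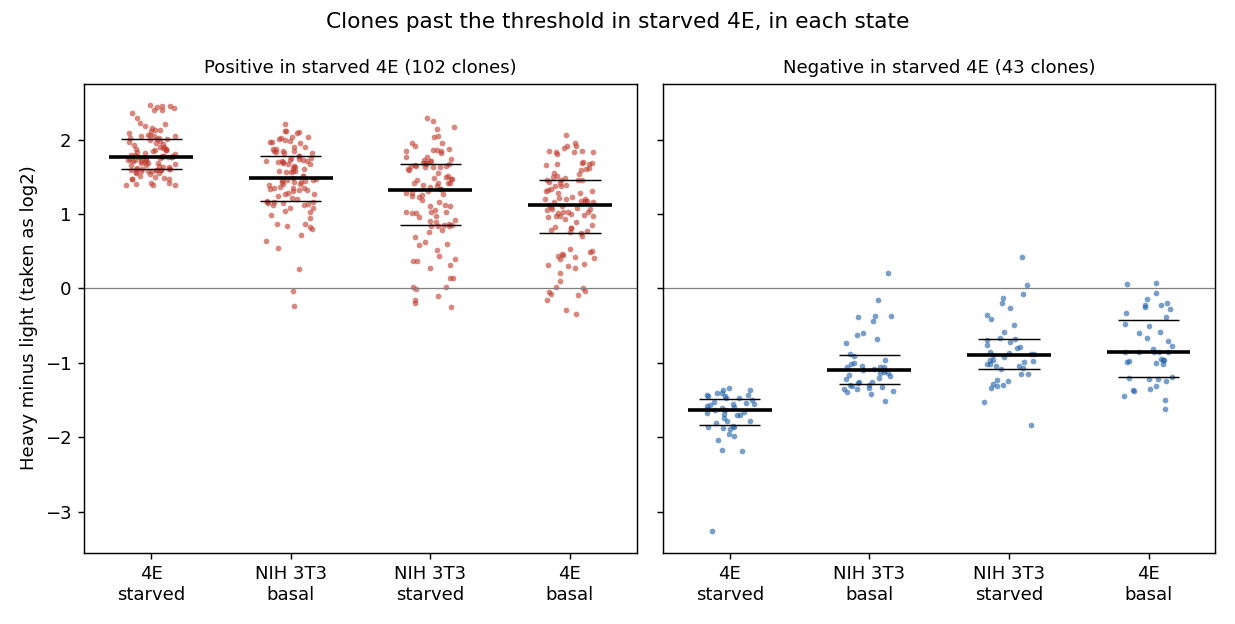
Heavy minus light differences (vertical axis) of the 102 positive (left) and the 43 negative clones (right) that passed in starved 4E, in each of the 4 states on the horizontal axis. Each point is a clone, thick lines are medians and thin lines the quartiles; the medians of the positive clones run from 1.77 in starved 4E to 1.12 in 4E basal cells and those of the negative clones from -1.63 to -0.85.

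Whether a clone's heavy minus light difference was itself different in starved 4E was tested directly. Against NIH 3T3 starved cells, which differ by the eIF4E transgene, 0 clones passed by limma (669 at an unadjusted p under 0.05, 4.41% of those tested). Against 4E basal cells, which differ by serum, 0 passed (793, 5.23%), and against NIH 3T3 basal cells 0 passed (441, 2.91%). Against the mean of the other 3 states 1 clone (0.00659%) passed, and 701 (4.62%) had an unadjusted p under 0.05. Leaving out 1 sample of starved 4E gave 0 to 5 clones against single states, and against the mean 38 without heavy sample 1, 10 without heavy sample 2, 5 without light sample 1 and 10 without light sample 2. The median 95% half-width was 1.19 for a single state and 0.97 for the mean. These widths are unadjusted, whereas the counts rest on adjusted p-values, so shifts well above these widths could also be missed. In simulated data 200 clones were shifted in the heavy samples of starved 4E only, with normal noise of 1 spread per clone in all groups. There the test against the mean recovered 0% of shifts of 1, 43.7% at 2 and 82.1% at 3. The real samples differ in spread, and the number of changed clones is not known, so these shares may not hold for them. The low counts do not bound shifts of 1 to 2 at single clones. The comparisons with the other states share the samples of starved 4E, and their values are not separate evidence. Both control rows of the array held values in the samples of starved 4E and NIH 3T3 basal cells and were empty in those of 4E basal and NIH 3T3 starved cells. A technical difference along this split that acted unequally on the fractions cannot be told apart from serum within the 4E line or from the cell line in starved cells.

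The clone that passed was H3009C04, with a difference of -3.19 (SE 0.43, adjusted p = 0.0414) between starved 4E and the mean of the other states. Its heavy minus light value was -0.28 in 4E basal, 0.43 in NIH 3T3 starved and -0.37 in NIH 3T3 basal cells. Against single states it was nearest to the threshold in NIH 3T3 starved cells (-3.69, SE 0.53, adjusted p = 0.08). The value of 0.43 in that state includes its heavy sample 1, whose upper and lower columns were 3.12 and -0.60. It did not pass against the mean when any 1 sample of starved 4E other than heavy sample 1 was left out (adjusted p from 0.0548 to 0.0604), nor with the upper columns alone (-1.62, SE 0.79, adjusted p = 0.998).

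On the positive side clone H3072H07 came nearest, and it did not pass. It stood at 1.93 and 2.34 in the heavy samples of starved 4E and at -0.38 and -0.14 in the light samples, while the other 12 samples lay between -0.12 and 0.82. The upper and lower columns were equal in both heavy samples. The difference from the mean of the other states was 2.38 (SE 0.40, adjusted p = 0.211), from 4E basal cells 2.69 (SE 0.48, adjusted p = 0.475) and from NIH 3T3 basal cells 2.44 (SE 0.48, adjusted p = 0.837). Against the mean it passed without heavy sample 1 (2.58, SE 0.45, adjusted p = 0.0368), a fit in which the sample of widest spread stands alone for the heavy fraction. It did not pass without heavy sample 2 (2.17, adjusted p = 0.182), light sample 1 (2.26, adjusted p = 0.297) or light sample 2 (2.49, adjusted p = 0.11). Within starved 4E itself its heavy minus light difference was 2.40 (SE 0.34, adjusted p = 0.0187).

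Clone H3142G10 stood at 1.48 and 1.57 in the heavy and at -0.34 and -0.55 in the light samples of starved 4E, a difference of 1.96 (SE 0.30, adjusted p = 0.0187). In NIH 3T3 starved cells all 4 samples lay between -0.63 and -0.53, with no gap between the fractions (-0.01). The difference between these states was 1.97 (SE 0.42, adjusted p = 0.983), and without heavy sample 2 it was 1.92. The heavy minus light value of this clone was 0.43 in 4E basal cells, with heavy samples at 1.03 and 0.46, and 0.26 in NIH 3T3 basal cells. Against the mean of the other states its difference was 1.74 (SE 0.34, adjusted p = 0.811). Clone H3108B01 had the next lowest p against NIH 3T3 starved cells, at 2.13 (SE 0.49, adjusted p = 0.983), but in starved 4E its heavy samples were 0.17 and 1.16 and its light samples -0.18 and -0.04.

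The clones with the next lowest p on the negative side followed several patterns. Clone H3110C07 had opposite signs, with -1.23 in starved 4E against 1.13 in 4E basal and 0.98 in NIH 3T3 starved cells, but -0.99 in NIH 3T3 basal cells. Its difference from 4E basal cells was -2.36 (SE 0.47, adjusted p = 0.783). Clone H3111B07 was similar, at -1.61 against 0.64, 1.43 and -0.71 in 4E basal, NIH 3T3 starved and NIH 3T3 basal cells, with a difference from NIH 3T3 starved cells of -3.03 (SE 0.61, adjusted p = 0.983). Both of these have 1 sign in the states whose control rows held values and the opposite sign in the others. Clones H3051D01 and H3145D04, described next, and H3108B01 had the same split, in part with values near 0. H3108B01 had 0.78 in starved 4E and 0.13 in NIH 3T3 basal cells, against -0.87 in 4E basal and -1.36 in NIH 3T3 starved cells. The rest of the named clones did not have this split. Clone H3051D01 stood at -1.53 in starved 4E (adjusted p = 0.0538) against 0.37, 0.45 and -0.04, and its difference from the mean of the other states was -1.79 (SE 0.40, adjusted p = 0.998). That difference was -2.23 without heavy sample 1 (SE 0.41, adjusted p = 0.0496) and -1.35 without heavy sample 2 (adjusted p = 0.92). It was -1.55 without light sample 1 (adjusted p = 0.587) and -2.03 without light sample 2 (adjusted p = 0.278). Clone H3076B11 had a negative difference from NIH 3T3 basal cells (-3.03, SE 0.58, adjusted p = 0.806) where its own heavy minus light value was 3.29, with 0.26 in starved 4E. On the positive side clone H3145D04 differed from 4E basal cells by 1.94 (SE 0.42, adjusted p = 0.801). Its own heavy minus light value was 0.90 in starved 4E and 0.41 in NIH 3T3 basal cells, against -1.04 in 4E basal and -0.03 in NIH 3T3 starved cells. Clone H3085B02 differed from NIH 3T3 basal cells by 1.88 (SE 0.43, adjusted p = 1), with 0.75 in starved 4E and -1.14 in NIH 3T3 basal cells.

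Of the 145 clones that passed in starved 4E, 37 (25.5%) had an unadjusted p under 0.05 against the mean of the other states, 46 (31.7%) against 4E basal cells, 34 (23.4%) against NIH 3T3 starved cells and 14 (9.66%) against NIH 3T3 basal cells. Over all clones these shares were 4.62, 5.23, 4.41 and 2.91%. The same samples picked the clones, so these shares are a description. The 4 clones of the 145 that shared their sign with 1 other state were all positive in starved 4E, and H3072H07 was one of them.

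The library position of the clones was not used to choose them. The 145 clones came from 88 of the 159 plates, with at most 5 on a plate, and 71 plates held none. The plates with 4 or 5 were 9, 10, 21, 25, 31, 59, 130 and 153, more of them at low numbers. The median difference of all clones of a plate ran from -0.34 in plate 111 to 0.35 in plate 24. Whether the clones were spread evenly over the plates was not tested. Each of the 8 plate rows held between 14 and 22. The plate columns were less even than the rows. Columns 4 and 5 held 22 each, together 44 of the 145 (30.3%), although they hold 16.7% of all clones, and the other columns held 7 to 12 each. Of the 44, 36 were positive. Among the 992 clones with an unadjusted p under 0.01 columns 4 and 5 held 193 (19.5%).

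The median difference of all clones of a plate column also varied with the column, more in starved 4E than in the other states. It was -0.119, -0.145 and -0.037 in columns 1 to 3, 0.059 in column 4, 0.169 in column 5 and 0.119 in column 6. In columns 7 to 10 it was -0.154, -0.183, -0.082 and 0.042, and in columns 11 and 12 it was 0.162 and 0.199. Columns 11 and 12 held 11 and 10 of the clones that passed, against 22 in column 4. The range over the 12 columns was 0.38 in starved 4E, 0.13 in 4E basal, 0.16 in NIH 3T3 starved and 0.20 in NIH 3T3 basal cells. Within single samples it was 0.31 in heavy sample 2 and 0.34 in light sample 2, with 0.22 in heavy sample 1 and 0.12 in light sample 1, against 0.08 to 0.31 in the 12 other samples. In columns 11 and 12 light sample 2 had medians of -0.164 and -0.20, and light sample 1 -0.016 and 0.057. When each sample was centred on the median of each plate column, an alternative chosen after seeing the data, 120 clones passed, 102 of them among the 145. Columns 4 and 5 then held 36 of the 120 (30%), a share as large as before the centring.

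**Figure D4:**
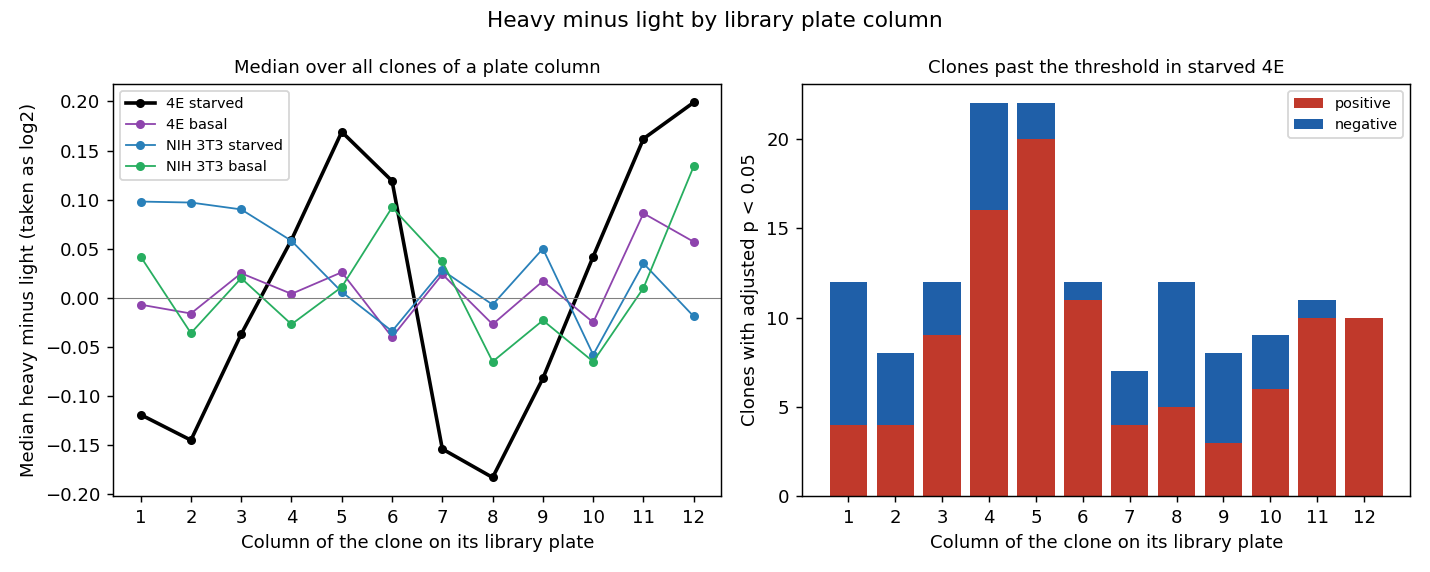
Left, the median heavy minus light difference over all clones of each of the 12 library plate columns (horizontal axis), 1 line per state; starved 4E runs from -0.183 in column 8 to 0.199 in column 12. Right, the number of clones with adjusted p under 0.05 in starved 4E by plate column, positive and negative stacked; columns 4 and 5 hold 22 each.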

How the data were processed

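The authors deposited 1 table of log ratios, taken as log2, that set the fractions against a shared reference. Sample and reference were hybridised together in 2 colours, per the labels. The log base, centring and direction of the ratio, the scanner, background correction, normalization within arrays and any spot filter is not given in the sources used here. The largest absolute deposited value was 11.3. Column medians after averaging lay within 0.0524 of 0. Columns titled 1 and 2, or 3 and 4, were averaged, because at every clone the same 1 of the pair was the higher or both were equal. This left 2 samples in each of 8 groups, whose number limits the precision.

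Of 15249 rows, 2 controls and 78 incompletely measured clones were not tested. The 16 samples were median-centred and fitted in limma (version 3.58.1, R 4.3.3) with 1 mean per group and empirical Bayes moderation, and p-values were adjusted by Benjamini-Hochberg over 15169 clones (8 residual and 6.51 prior degrees of freedom). The script was tested on simulated data. The named clones are, per comparison, the 2 largest differences on each side with adjusted p under 0.05, or else those with the smallest p. The clones, comparisons and settings were chosen with earlier results of these data known. Alternatives were other scalings, filters, columns, weights, moderation and sample sets, a block by sample number and each sample of starved 4E left out. Gene lists and cell type markers could not be run without gene names.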

Additional observations from a re-analysis of the deposited data

Results flagged for a closer look

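Clone H3009C04 was the 1 clone whose heavy minus light difference in starved 4E differed from the mean of the other 3 states by limma's test of that difference, by -3.19 (SE 0.43, adjusted p = 0.0414). Both heavy samples of starved 4E were below all 14 other samples. The call was lost with the upper columns alone and in 3 of the 4 fits without 1 sample of starved 4E.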

How the results depend on the processing

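The count of 145 clones in starved 4E was 9 with quantile normalization, 2 (1 positive, 1 negative) after scaling to 1 median absolute deviation, 2 with array weights, 27 with the replicate block and 54 with the lower column alone. It was 312 of 3018 clones with unequal columns in every sample, and 0 in the fits of 4 or 8 samples. It was 4187 with each column as a replicate, where 1 sample counts as 2, so p-values there do not measure the spread between samples. It ran from 13 to 635 with 1 sample left out. Against 4E basal cells the lower column gave 1 clone and each column as a replicate 921. Against NIH 3T3 starved cells quantile normalization gave 1, trended robust moderation 1 and each column as a replicate 714, and against NIH 3T3 basal cells the last gave 258. The 1 clone against the mean of the other states became 0 with median absolute deviation scaling, array weights, the replicate block, the higher column alone and unequal columns alone, and 714 with each column as a replicate. With 1 sample left out these 4 counts ran from 0 to 5, 0 to 4, 0 to 4 and 5 to 38. The share with the same sign in the other states was 77.8% with quantile normalization, 50% of 2 clones with median absolute deviation scaling and with array weights, 95.2% with unequal columns, 62.6% with each column as a replicate, and 28.6 to 60.9% with 1 sample left out. The share of clones in plate columns 4 and 5 was 19.5% at an unadjusted p under 0.01. The cause of these moves was not tested. Some of these fits also hold fewer samples or clones. The correlation of the heavy and the light samples' deviations by sample number was 0.00808 in starved 4E, 0.207 in 4E basal, 0.356 in NIH 3T3 starved and -0.329 in NIH 3T3 basal cells, so the numbers were not taken to pair the samples. The block changed no other count by over 1.5 times, and under it clone H3122A01 did not pass in starved 4E (adjusted p = 0.0566, limma). Of 334 alternative values of single named clones 0 changed sign, 32 lost and 18 gained an adjusted p under 0.05. Weights, moderation, the block and each column as a replicate change the error and leave the difference, so no sign could change there. Most of the gains came from the fit with each column as a replicate. Signal over background is not used here.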
